A study of Mus musculus with 6 samples.

Results

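The transcription factors examined here direct the commitment and the stepwise maturation of natural killer (NK) cells. They were chosen by name, as the rows of the deposited table whose symbol is Tbx21, Eomes, Zeb2, Prdm1, Gata3, Tcf7, Id2, Nfil3, Tox or Foxo1. All 10 of 10 named factors were found among the 14490 genes listed, and all 10 passed the filter on low values. Transcripts were measured by mRNA-seq in NK cells sorted from the spleens of C57BL/6 mice aged 6 to 10 weeks, with 3 samples per genotype. WT mice were Mettl3fl/fl and carried no Cre. cKO mice were Ncr1Cre-Mettl3fl/fl, bred from Ncr1Cre/+ animals, so that every sample came from floxed animals and the cKO samples carried in addition Cre expressed from the Ncr1 locus, which encodes the NK receptor NKp46. The effect of the Cre insertion and that of the deletion of Mettl3 therefore cannot be told apart. Deletion by this Cre begins once NK cells express Ncr1, after commitment to the lineage. The labels do not say whether the 3 samples of a genotype came from separate animals, so p-values measure only the spread between these samples.

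NK cells arise in the bone marrow from lymphoid progenitors and pass through stages that are followed on the surface by CD27 and CD11b. Nfil3, Id2 and Tox act in commitment: Nfil3 is needed for NK progenitors, Id2 holds back the E proteins that drive B- and T-cell programmes, and Tox is an HMG-box protein needed for NK development. Tcf7 (TCF-1), Gata3, Foxo1 and Eomes are grouped here as early factors, with the immature stages. This grouping is not strict, since Gata3 also acts in NK maturation and Eomes marks conventional NK cells. Tbx21 (T-bet), its target Zeb2 and Prdm1 (Blimp-1) are linked with the terminal stage. METTL3, the protein lost in cKO NK cells, is the catalytic subunit of the enzyme that writes N6-methyladenosine (m6A) on mRNA. It acts mostly within a short motif of which GGACT is the classical form, often near the stop codon.

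To show where such letters lie in 4 of the 5 transcripts that changed and in 2 abundant ones that did not pass the test, 29 bases are printed around the GGACT nearest to the stop codon of each. The sequences come from GENCODE M21 on GRCm38 in transcript direction, 5′ to 3′, with the motif in capitals.
Tbx21, chr11:97098893-97098921, minus strand, coding sequence in exon 6 of 6: cccagcgactcaGGACTaggcgaaggaga
Prdm1, chr10:44439501-44439529, minus strand, 3′ UTR in exon 8 of 8: ggaattaaagaaGGACTccaatgttacca
Foxo1, chr3:52346226-52346254, plus strand, coding sequence in exon 2 of 3: tattgagcgcttGGACTgtgacatggagt
Tox, chr4:6688832-6688860, minus strand, coding sequence in exon 8 of 9: cccacagcccgtGGACTggagtaccgact
Eomes, chr9:118484701-118484729, plus strand, coding sequence in exon 6 of 6: aagatggcagctGGACTaccatggacatc
Tcf7, chr11:52253841-52253869, minus strand, 3′ UTR in exon 10 of 10: cccagctccccaGGACTcaccctcgtatc
The GGACT nearest to the stop codon of Id2, the fifth transcript that changed, lies in the 3′ UTR in exon 4 of 4, with its A 18 bases after the stop codon, and is not printed because the bases around it span a splice junction. The A of the motif lies 28 bases after the last base of the stop codon in Tcf7 and 152 bases after it in Prdm1. The letters are a description of the transcript, and methylation was not measured in these samples.

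The table held counts divided by a size factor per sample, here called normalized counts. Between 55965515 and 71464042 reads fell on the listed genes of a sample. The deleted gene, Mettl3, served to check the labels. Its normalized counts were 1303, 1258 and 1192 in WT and 297, 299 and 405 in cKO, here and throughout in the order of samples 1, 2 and 3, so that each cKO sample lay below all WT samples. Genotypes were compared by limma on log2 (normalized count + 1), two-sided, with p-values adjusted across all 14490 genes by the Benjamini-Hochberg method, and a gene was called at an adjusted p under 0.05. By this rule 36.6% of all genes were called, 17.8% higher and 18.8% lower in cKO. Among the genes with a mean of at least 1000 normalized counts, the range in which all 10 factors lie, 52.6% were called. Of the NK markers Ncr1, Klrb1c, Klrk1, Klrd1, Nkg7, Itga2 and Il2rb, all 7 were present, 4 of them lower and 1 higher in cKO. Their summed level was 385499 to 401863 normalized counts in WT and 367748 to 382169 in cKO. Il2rb, the marker that rose, was the largest part of that sum and went from 170370 to 187594. The 4 that fell were Ncr1, Nkg7, Klrb1c and Klrk1, with log2 fold changes of −0.4, −0.34, −0.27 and −0.19. Ncr1 is the locus that carries the Cre in cKO. Its fall, from 22394 to 16918, therefore cannot be told apart from an effect of the insertion.

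Of the 10 factors, 5 differed between the genotypes. Tbx21, Prdm1, Foxo1 and Id2 rose in cKO, Tox fell, and Zeb2, Tcf7, Gata3, Eomes and Nfil3 did not pass the test. This share did not exceed the background given above for genes of such abundance. The changes were small. The called factors moved by between 7.65% and 20.4%, and the absolute log2 fold change had a median of 0.086 over the 10 factors against 0.17 over all listed genes. Only 6945 of the 14490 listed genes had a mean of at least 1000 normalized counts, as all 10 factors had. The 0.17 is therefore not a background matched for abundance. In bulk RNA, fewer cells of a type and less RNA per cell cannot be told apart.

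**Figure D1:**
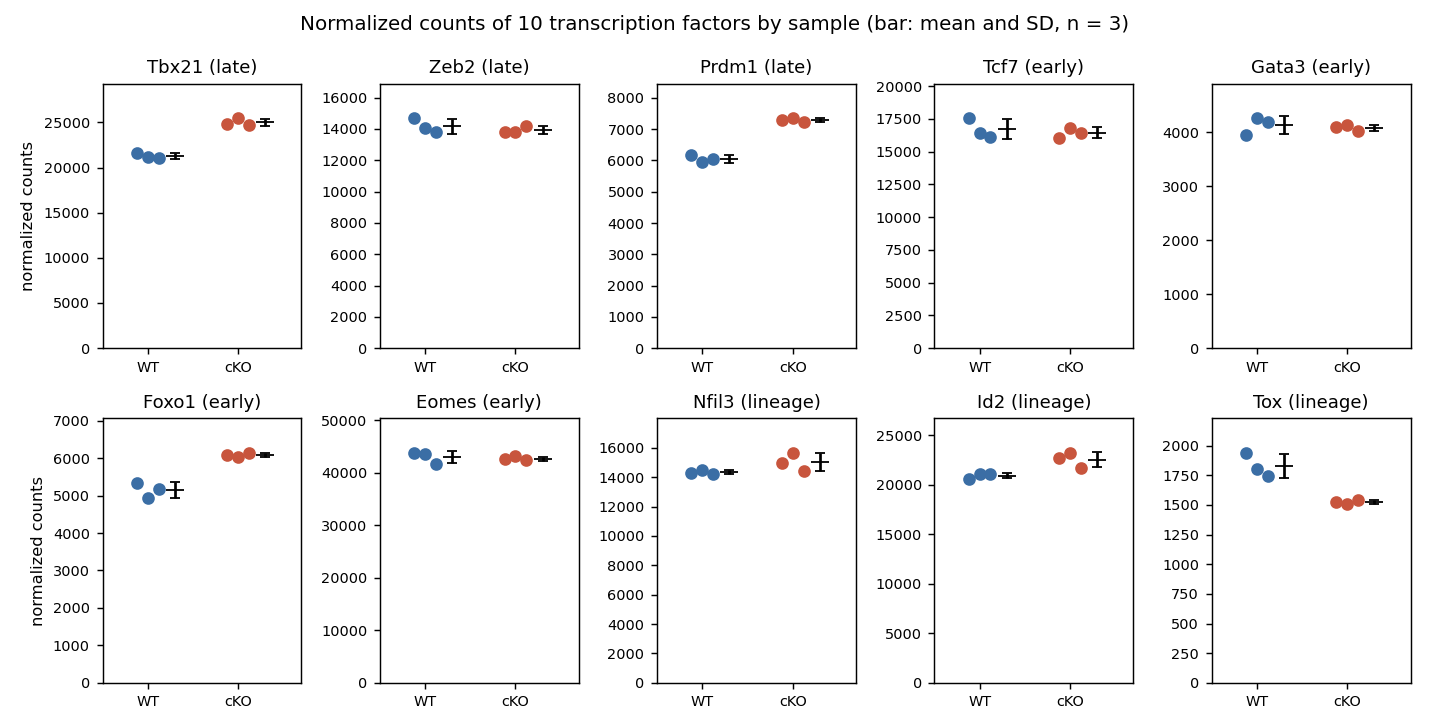
Normalized counts of the 10 factors, 1 panel per gene with its own axis from 0, with points for the 3 WT (blue) and 3 cKO (red) samples and a bar for the mean and SD. The genotypes separate for Tbx21, Prdm1, Foxo1 and Id2, which were higher in cKO, and for Tox, which was lower, and they overlap in the other 5 panels.

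The factors of the terminal stage were taken first. Tbx21, a T-box activator of the effector programme, lies at chr11:97098071-97115331 on the minus strand of GRCm38. Its normalized counts were 21612, 21146 and 21010 in WT and 24787, 25483 and 24769 in cKO. All cKO samples were above all WT samples, with means of 25013 ± 407 (SD, n = 3) and 21256 ± 316 (SD, n = 3). The log2 fold change was 0.23, a rise of 17.7% with a 95% confidence interval from 12.8% to 22.8% (adjusted p = 5.47e-07 in limma). An exact permutation test, two-sided, gave p = 0.1 over its 20 assignments. This is the lowest value that 3 samples against 3 can give, so the test cannot pass 0.05 for any gene here. The rise is one of mRNA, and protein was not measured in these samples. The authors stained T-bet protein in splenic NK cells by flow cytometry and found it lower in cKO than in WT mice.

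Prdm1 encodes a zinc-finger repressor that is induced as NK cells mature (chr10:44437177-44528501, minus strand). Its normalized counts were 6184, 5940 and 6039 in WT and 7288, 7354 and 7221 in cKO. No sample of one genotype came near those of the other. The mean rose from 6054 ± 123 (SD, n = 3) to 7288 ± 66.8 (SD, n = 3), by 20.4% (95% confidence interval 14.5% to 26.6%), a log2 fold change of 0.27 (adjusted p = 9.01e-07 in limma). It was the largest of the 4 rises. Prdm1 is also the master regulator of plasma cells, whose markers Jchain, Sdc1 and Mzb1 summed to 176 to 186 normalized counts in WT and 191 to 224 in cKO, with Tnfrsf17 not in the table and 0 of 3 called. The log2 fold changes of these 3 markers were 0.04, 0.58 and 0.31, and the part of plasma cells in the rise of Prdm1 was not tested.

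Zeb2, a zinc-finger repressor that acts downstream of T-bet in terminal NK maturation (chr2:44983632-45117395, minus strand), behaved otherwise. In WT it reached 14693, 14031 and 13778 normalized counts and in cKO 13784, 13801 and 14209. The samples of the genotypes were intermingled. The log2 fold change was −0.02, with a 95% confidence interval for the change from −6.13% to 3.07% (adjusted p = 0.617 in limma). This interval does not reach the rises of Tbx21 or Prdm1. Annotated transcripts on the other strand share exonic bases with Zeb2, and the 1 of them in the table, Zeb2os, was low, at 43.5 normalized counts in WT and 30.8 in cKO. The sources used here do not say whether reads were counted by strand.

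Among the factors of the immature stages, Foxo1 was the one that changed. It encodes a forkhead factor that keeps lymphocytes in a resting, recirculating state (chr3:52268336-52353221, plus strand). Its normalized counts were 5343, 4925 and 5169 in WT and 6088, 6031 and 6140 in cKO. Every cKO sample exceeded every WT sample. The mean rose from 5146 ± 210 (SD, n = 3) to 6086 ± 54.3 (SD, n = 3), by 18.3%, a log2 fold change of 0.24 with a 95% confidence interval from 0.16 to 0.32 (adjusted p = 1.27e-05 in limma). The rise of this early factor was thus of the same order as those of the late factors Tbx21 and Prdm1, and their intervals overlapped.

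Eomes, the T-box relative of Tbx21 that marks conventional NK cells (chr9:118478212-118486132, plus strand), had 43755, 43594 and 41572 normalized counts in WT and 42531, 43090 and 42363 in cKO. All cKO values lay within the range of WT. The change was between −4.82% and 3.59% at 95% confidence (log2 fold change −0.01, adjusted p in limma = 0.828). With means of 42974 and 42661 normalized counts it had the narrowest interval of the 10 factors. Gm33460, a gene on the other strand that shares exonic bases with Eomes, had 435 normalized counts in WT and 478 in cKO. Foxo1, Gata3 and Tox also share exonic bases with annotated genes of the other strand that are not in the table.

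Tcf7 encodes an HMG-box factor that is highest in immature NK cells and declines with maturation (chr11:52252371-52283014, minus strand). In WT it reached 17554, 16443 and 16139 normalized counts, and it reached 16021, 16836 and 16440 in cKO. The genotypes overlapped, and WT sample 1 was the highest of the 6. The log2 fold change was −0.02, with an interval of the change from −6.31% to 3.28% (adjusted p = 0.633 in limma). Gata3, a zinc-finger factor of T cells and innate lymphoid cells that also acts in NK maturation (chr2:9857078-9890034, minus strand), was at 3944, 4258 and 4192 normalized counts in WT and at 4092, 4125 and 4014 in cKO. Here too the cKO samples lay inside the WT range. Its log2 fold change was −0.02, with an interval from −6.87% to 4.66% (adjusted p = 0.768 in limma).

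The lineage factors moved in different directions. Id2, an inhibitor of E proteins (chr12:25093799-25097140, minus strand), was at 20650, 21121 and 21067 normalized counts in WT and at 22680, 23242 and 21748 in cKO. The groups did not overlap, although cKO sample 3 came close to WT. The rise was 7.65% (95% confidence interval 2.95% to 12.6%), a log2 fold change of 0.11 (adjusted p = 0.0087 in limma). Without cKO sample 2 the adjusted p was 0.0541 and the call was lost.

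Nfil3, a basic leucine zipper factor required for NK progenitors (chr13:52967209-52981073, minus strand), was at 14282, 14496 and 14211 normalized counts in WT and at 14961, 15649 and 14429 in cKO. Only cKO sample 3 fell within the WT range. The change was 4.71%, with an interval from −0.133% to 9.8% that just included 0 (log2 fold change 0.07, adjusted p in limma = 0.124). It passed the test with the samples scaled to equal totals (adjusted p = 0.00407) and without cKO sample 3 (adjusted p = 0.0454), while over all alternatives the adjusted p lay between 0.00407 and 0.466.

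Tox was the only factor of the 10 that fell (chr4:6686353-6991557, minus strand). Its normalized counts were 1938, 1806 and 1739 in WT and 1522, 1508 and 1538 in cKO. The cKO samples lay close together and below all WT samples. The mean went from 1828 ± 101 (SD, n = 3) to 1523 ± 14.8 (SD, n = 3), a change of −16.6% (95% confidence interval −22.9% to −9.82%) and a log2 fold change of −0.26 (adjusted p = 0.000412 in limma). Tox is also expressed in T cells. Of the T-cell markers Cd3d, Cd3e, Cd3g, Cd4, Cd8a, Cd5, Cd6 and Cd28, 3 of 8 were lower in cKO and 0 were higher, with Cd8b1 not in the table, and their summed level was 13332 to 14569 normalized counts in WT and 9104 to 9672 in cKO. Most of that sum was Cd28, which NK cells also express and which went from 11867 to 7910. Cd3g fell from 802 to 478 normalized counts and Cd6 from 57.5 to 32.3 (adjusted p = 4.5e-08 and 0.0393 in limma). Cd3e had 151 normalized counts in WT and 166 in cKO, Cd3d 710 and 660, and these and the other 3 markers did not pass the test. Over all listed genes 18.8% were called lower in cKO. The part of T cells in the fall of Tox was not tested.

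**Figure D2:**
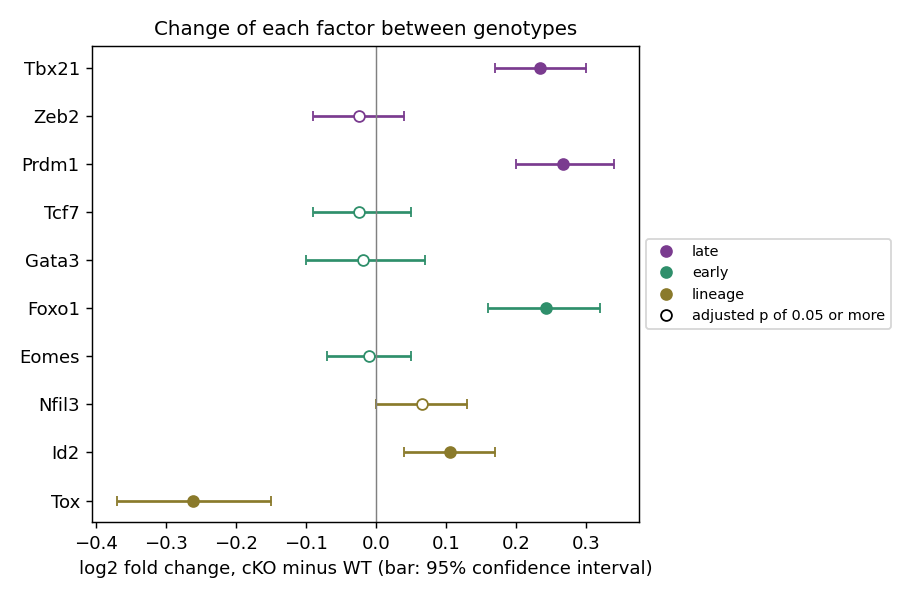
Log2 fold change of each factor, cKO minus WT, on the horizontal axis, with bars for the 95% confidence interval from limma and filled points where the adjusted p was under 0.05. Prdm1 (0.27), Foxo1 (0.24) and Tbx21 (0.23) lie together on the right, Id2 (0.11) nearer to 0 and Tox (−0.26) on the left.

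Early and late factors were then set against each other. Of the 3 late factors 2 rose, of the 4 early factors 1 rose, and of the 3 lineage factors 1 rose and 1 fell. Over all listed genes 36.6% were called, and 52.6% of those with a mean of at least 1000 normalized counts. The median log2 fold change was 0.23 over the late factors and −0.01 over the early and lineage factors together, against 0.0014 over all listed genes. These counts and medians rest on few genes and carry no test. The genotypes did not overlap for the same 5 factors that were called, and 45.7% of all genes showed no overlap. Exact permutation p-values, two-sided, were 0.1 for each of those 5 and between 0.2 and 0.8 for the others.

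Ratios within a sample do not depend on the scaling between samples. The log2 ratio of Tbx21 to Eomes was −1.02, −1.04 and −0.98 in WT and −0.78, −0.76 and −0.77 in cKO. Relative to Eomes, Tbx21 was thus higher in every cKO sample. The mean log2 ratio went from −1.02 ± 0.0297 (SD, n = 3) to −0.77 ± 0.0111 (SD, n = 3), an increase of the ratio of 18.5% (p = 0.1 in the two-sided exact permutation test, the smallest it can give). Against Tcf7, the log2 ratio of Tbx21 was 0.30, 0.36 and 0.38 in WT and 0.63, 0.60 and 0.59 in cKO. Again the genotypes did not overlap, and the ratio was 19.6% higher in cKO (p = 0.1 in the same exact test). A summary by medians did not separate the genotypes. The median log2 level of the 3 late factors minus that of the 7 others was 0.04, −0.05 and −0.04 in WT and −0.12, −0.18 and −0.02 in cKO, so that cKO sample 3 lay above WT samples 2 and 3. Among the 3 late factors the median is the level of Zeb2 in each sample, and among the 7 others it is the level of Nfil3. The measure is therefore the log2 ratio of Zeb2 to the lineage factor Nfil3. The rises of Tbx21, Prdm1 and Foxo1 do not enter it, and it does not compare the late factors with the early ones as groups.

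**Figure D3:**
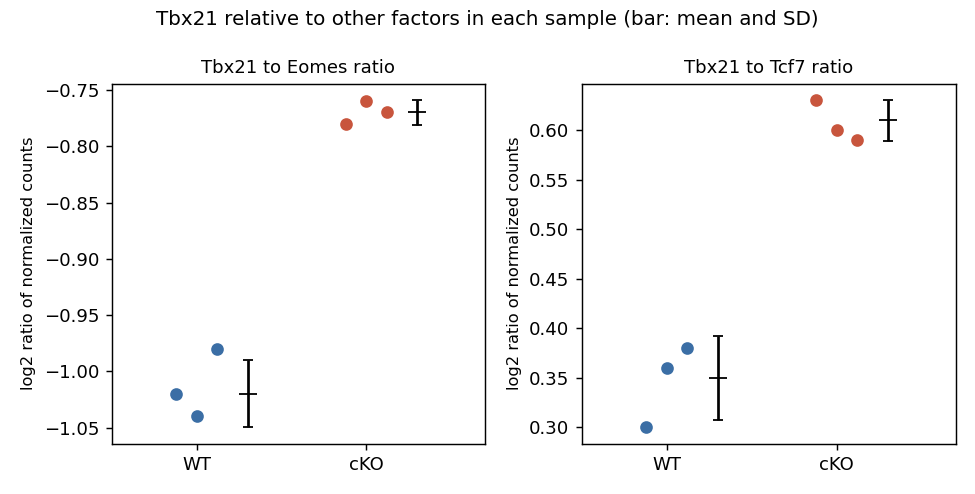
Log2 ratio of the normalized counts of Tbx21 to Eomes (left) and of Tbx21 to Tcf7 (right) in each of the 3 WT and 3 cKO samples, with a bar for the mean and SD. The vertical axes do not start at 0. Both ratios are higher in all cKO samples, at −0.78 to −0.76 against −1.04 to −0.98 on the left and at 0.59 to 0.63 against 0.30 to 0.38 on the right.

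To order the factors by level, normalized counts were divided by the length of the transcript. Per kb, Eomes led in WT with 12071 ± 342 normalized counts (SD, n = 3), before Id2 with 10638 ± 131 and Tbx21 with 8543 ± 127. On this scale these neighbours did not overlap in WT or in cKO. Nfil3 with 7073 and Tcf7 with 6763 normalized counts per kb followed, and their WT samples overlapped. A wide gap separated these abundant factors from the rest, with Zeb2 at 1553, Gata3 at 1285, Prdm1 at 1146, Foxo1 at 594 and Tox at 461 normalized counts per kb. The order was the same in cKO apart from Prdm1, which stood at 1380 per kb and passed Gata3 at 1268. Levels of genes with several isoforms depend on the length used. Over the union of all exons, Zeb2 had 710 normalized counts per kb in WT and stood below Prdm1 (1085) and Gata3 (1039), whose WT samples then overlapped. On the same scale Id2 (8591) and Tbx21 (8543) overlapped in WT, and in cKO Tbx21 (10053) stood above Id2 (9252) and overlapped Eomes (10267). Nfil3 (7073) and Tcf7 (6367) then lay apart in WT, and in cKO Foxo1 (702) and Zeb2 (699) overlapped.

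**Figure D4:**
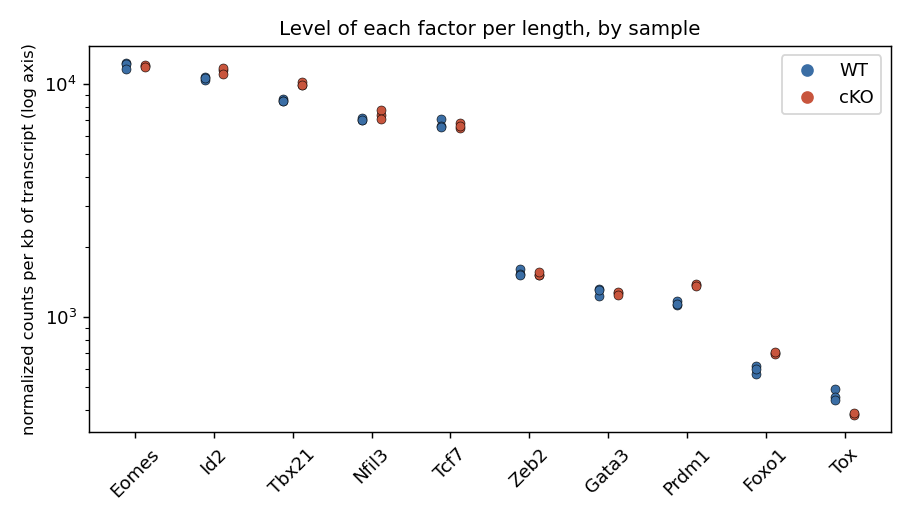
Normalized counts per kb of transcript on a log axis for the 10 factors, ordered by their WT mean, with points for the 3 WT (blue) and 3 cKO (red) samples. The 5 factors from Eomes to Tcf7 (WT means 12071 to 6763) lie in an upper group and the 5 from Zeb2 to Tox (1553 to 461) in a lower one.

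Relatives and partners of the factors were counted next, from a list of family members, E proteins and other regulators of NK maturation. Of 26 genes 24 were in the table, without Tox2 and Tox3, and 8 were higher and 3 lower in cKO, or 11 and 2 with the samples scaled to equal totals. Beside this stands a share of 36.6% called over all listed genes, and 52.6% at a mean of at least 1000 normalized counts. The median log2 fold change of the list was 0.01. Id3, like Id2 an inhibitor of E proteins, rose from 101 ± 19.9 to 191 ± 16.5 normalized counts (SD, n = 3), a log2 fold change of 0.93 (adjusted p = 0.000208 in limma). The E protein genes Tcf12 and Tcf3 fell by 0.19 and 0.11 on the log2 scale (adjusted p = 0.000322 and 0.0134 in limma). So 2 inhibitors rose and 2 of their binding partners fell, while the E protein gene Tcf4 and the inhibitor Id1 did not pass the test, with log2 fold changes of −0.08 and 0.44. Zfpm1, which encodes the Gata cofactor FOG-1, rose by 0.22 (adjusted p = 7.3e-06 in limma), and Hlf, a leucine zipper gene at low level, by 0.69 (adjusted p = 0.0258 in limma). The forkhead genes diverged. Foxo4 had the largest fall among the called genes of the list, from 6924 to 5609 normalized counts, a log2 fold change of −0.30 (adjusted p = 4.93e-06 in limma), while Foxo1 and Foxo3 (log2 fold change 0.17) rose.

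Markers of the stages did not move in 1 direction. Of 14 genes that rise late in maturation, 4 were higher and 6 lower in cKO, with a median log2 fold change of −0.03. The share called was 36.6% over all listed genes and 52.6% at a mean of at least 1000 normalized counts. S1pr5, the receptor for exit from bone marrow and a known T-bet and Zeb2 target, rose from 7958 ± 374 to 11202 ± 330 normalized counts (SD, n = 3), a log2 fold change of 0.49 (adjusted p = 4.11e-11 in limma). The chemokine receptor gene Cx3cr1 rose by 0.54 and the integrin gene Itgb2 by 0.17 on the log2 scale (adjusted p = 1.82e-07 and 7.42e-05 in limma). Other late markers went the opposite way. Ly6c2 fell from 7354 ± 145 to 2905 ± 108 normalized counts (SD, n = 3), a log2 fold change of −1.34 (adjusted p = 9.18e-19 in limma), Klrg1, the inhibitory receptor of terminal NK cells, by 0.55, and the chemokine gene Ccl5 by 0.31. Itgam, the gene of CD11b that defines the late stages, had a log2 fold change of 0.00 and did not pass the test. With equal totals 6 late markers were higher and 5 lower.

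Of 14 early markers 13 were in the table, without Cd34, and 4 were higher and 4 lower in cKO, with a median log2 fold change of 0.06. Among all listed genes 36.6% were called, and 52.6% at a mean of at least 1000 normalized counts. The receptor genes Cxcr3 and Il7r and the cytokine gene Ltb rose by 0.81, 0.52 and 0.64 on the log2 scale. Kit, the stem cell factor receptor, Il2ra and Cd7 fell by 0.53, 0.73 and 0.29. The limma adjusted p of these 6 genes was at most 0.000151. Cd27, the surface marker of the early stages, had a log2 fold change of 0.03 and did not pass the test. With equal totals 7 early markers were higher and 3 lower.

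Known targets of Foxo1 were counted in the same way. All 17 were in the table, Tcf7 among them, and 8 were higher and 5 lower in cKO, or 9 and 3 with equal totals, with a median log2 fold change of 0.05. For comparison, 36.6% of all listed genes were called, and 52.6% at a mean of at least 1000 normalized counts. S1pr1, a receptor for egress into the blood, rose most, from 2342 ± 106 to 5850 ± 150 normalized counts (SD, n = 3), a log2 fold change of 1.32 (adjusted p = 3.24e-18 in limma). Every cKO sample, at 5736, 6020 and 5792, was more than 2 times the WT samples at 2437, 2362 and 2228. Il7r and Irs2, an insulin receptor substrate, rose by 0.52 and 0.46 on the log2 scale (adjusted p = 1.37e-06 and 1.06e-11 in limma). The repressor gene Bcl6 fell by 0.57 (adjusted p = 1.43e-11 in limma), and Gadd45b and Ccng2 by 0.28 each. Targets moved both ways beside the rise of Foxo1.

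**Figure D5:**
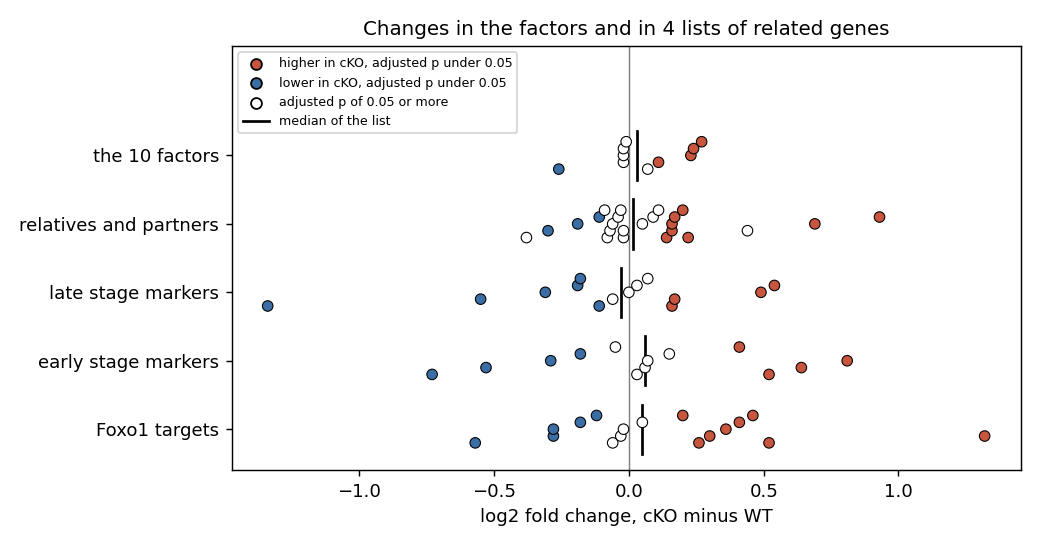
Log2 fold change, cKO minus WT, of the 10 factors and of the genes of 4 lists, each point a gene, coloured where the limma adjusted p was under 0.05, with a line at the median of each list. The factors lie between −0.26 and 0.27, while single genes of the lists reach from −1.34 (Ly6c2) to 1.32 (S1pr1), and every list has genes on both sides of 0.

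Markers of other cells were measured in the same samples. Genes that mark ILC1, the close relatives of NK cells that depend on Tbx21 and lack Eomes, summed to 1626 to 1860 normalized counts in WT and 1727 to 1811 in cKO, and 0 of 8 were called. Of 4 genes of other innate lymphoid cells, which use Gata3, 1 was in the table and it was not called. B-cell genes were 6 of 7 higher in cKO, with sums of 1299 to 1342 normalized counts in WT and 1787 to 1839 in cKO. Foxo1 and Id3 are also expressed in B cells, and the part of B cells in their rises was not tested. The myeloid list, at 7027 to 7623 normalized counts in WT and 6974 to 7786 in cKO, had 3 genes higher and 1 lower of 5 in the table, and 0 of 5 erythroid genes were called. Over all listed genes 17.8% were called higher and 18.8% lower in cKO.

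The motif letters were counted in the transcripts because the genotypes differ in the m6A writer. Of the protein-coding transcripts of listed genes, 92.2% hold at least 1 GGACT on the transcript strand, with a median of 1.05 per kb and quartiles of 0.64 and 1.52. All 10 factors hold it. Id2 with 2.03 and Tbx21 with 2.01 per kb were the densest, at the percentiles 89.4 and 88.9 of these transcripts. Foxo1 held 13 copies (1.5 per kb) and Prdm1 held 7 (1.33 per kb). Tox, the factor that fell, was the sparsest with 2 copies, or 0.50 per kb, at the percentile 18.1. The factors that did not pass the test lay between 0.93 (Gata3) and 1.21 (Tcf7) per kb. Across the 10 factors, Spearman's rho between motif density and log2 fold change was 0.77. Across 11815 protein-coding genes of the same libraries it was 0.06, and genes are not independent replicates. The order seen among the 10 factors is thus a description of these genes and was not seen at that strength over all genes.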

How the data were processed

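Splenic NK cells of WT and cKO mice were purified by FACS, polyA RNA was sequenced in paired ends, with genotype and replicate number as the labels give them. The authors aligned reads to GRCm38 with HISAT2 (2.0.5 in the submitters' processing notes) and counted them per gene with featureCounts 1.5.0-p3. The signal values the authors deposited are counts divided by the DESeq2 (1.16.1) size factor of each sample. The table also holds the authors' mean, log2 fold change with standard error, test statistic, p-value and adjusted p-value, which were not used. Of 14490 gene names, 97.3% matched GENCODE M21.

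The factors and gene lists were chosen with earlier results of these data known. A filter of 1 normalized count or more in 3 or more samples removed 0 genes. limma 3.58.1 (R 4.3.3) with a variance trend was applied to log2(value + 1), which slightly understates changes of low genes. Intervals are at the 95% level. All values were whole multiples of 1 step per sample, so reads follow from the values: between 1497 and 47418 reads lay behind each value of a factor, a counting error of at most 2.58%. Replicates of a genotype differed by more than sampling noise. Named list genes are the 3 largest called rises and falls per list with a mean of at least 100 normalized counts, and marker genes, Tcf4, Id1, Foxo3, Itgam and Cd27 were named after their values were seen. The steps were tested on simulated data. Alternatives were a pseudocount of 0.1, 2 other filters, equal totals, limma-voom with TMM, the replicate number as a block, a correction for GC content and length, and each sample left out in turn.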

Additional observations from a re-analysis of the deposited data

How the results depend on the processing

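The directions and calls of Tbx21, Prdm1, Foxo1 and Tox held in all 14 settings. Over the alternatives 4 to 6 factors were called, the changes being Id2 (log2 fold change 0.085, limma adjusted p = 0.0541 without cKO replicate 2) and Nfil3 (0.116, adjusted p = 0.00407 with equal totals, and 0.095, adjusted p = 0.0454 without cKO replicate 3). 4 factors that were never called changed sign. Leaving out single replicates moved them from −0.044 in Zeb2, −0.048 in Tcf7, −0.052 in Gata3 and −0.034 in Eomes at the lowest to the values of 0 or more given below. With equal totals, which move the median of all genes from 0.001 to 0.051, their log2 fold changes were 0.026 in Zeb2, 0.026 in Tcf7, 0.031 in Gata3 and 0.039 in Eomes. Without WT replicate 1 they were 0.003 in Zeb2, 0.012 in Tcf7 and 0.003 in Eomes, and without WT replicate 2 they were 0.004 in Gata3 and 0.0 in Eomes. The late minus early difference of −0.09 became −0.179 with Eomes left out of the early group and −0.133 with the lineage factors left out, and lay between −0.133 and −0.053 without single replicates. These shifts follow from which genes form the median. With Eomes left out, the median of the early and lineage factors is the mean log2 level of Nfil3 and Foxo1. With the lineage factors left out, the median is the mean log2 level of Tcf7 and Foxo1. The rise of Foxo1 (log2 fold change 0.243) thus enters the measure in these settings, beside Nfil3 (0.066) or Tcf7 (−0.024). Genes called over the whole table numbered 5307, and 4417 to 4922 without single replicates, where fewer samples enter. With equal totals 63.4% of the calls were higher, against 48.5%.

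Whether replicate numbers pair the samples was not settled. Deviations from the genotype means correlated at −0.024, 0.123 and 0.065 between samples of the same number, over 11055 genes. Between samples of different numbers they correlated at −0.11 to 0.048. Samples 2 and 3 of each genotype correlated best with their own number, and sample 1 of each did not. With the replicate block 5543 genes and 5 factors were called. Count models (edgeR and DESeq2) were planned and not run. limma-voom on reads recovered from the values called 5279 genes and the same number of factors, 5. With 3 samples per genotype, a factor that did not pass the test may still differ within the interval given for it.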
